A study of Mus musculus with 2 samples.

Results

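The genes described here are 10 markers of smooth muscle cells and pericytes, the contractile cells that wrap blood vessels: Acta2, Actg2, Tagln, Myh11, Cnn1, Mylk, Rgs5, Kcnj8, Abcc9 and Cspg4. They were chosen by name as known markers, with earlier results of these data known, and all 10 were found among the 43346 Ensembl genes of each deposited gene table, of which 21474 are protein coding in GENCODE M21. Total RNA was sequenced from the embryonic facial prominence, the tissue of the developing face, of B6NCrl mice at embryonic day 15.5. The study has 1 group of healthy embryos of mixed sex with 2 libraries, biological replicate 1 pooled from 78 embryos and biological replicate 2 pooled from 62 embryos, both under the same donor label. No treatment, genotype or other tissue was compared, so the values below are levels and the spread between pools, with no test of a condition.

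The input of each library was 10 ng of mirVana-extracted RNA longer than 200 nucleotides, and the labels name a spike-in set. Expected counts, the authors' estimates of reads per gene, summed to 37128010 in replicate 1 and 38543623 in replicate 2. Levels are in TPM, the usual relative unit of transcript abundance, which is scaled by transcript length and so can be compared between genes. For a transcript of 1 kb, a read more or less was worth 0.0406 TPM in replicate 1 and 0.0389 TPM in replicate 2. Spike-ins took 6.42% of all TPM in replicate 1 and 10.1% in replicate 2, which lowers every gene's TPM in replicate 2 more than in replicate 1. The libraries differed by more than the sampling noise of their counts and were kept as 2 samples.

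Smooth muscle contracts when calcium and calmodulin activate myosin light chain kinase, which phosphorylates the regulatory light chain of myosin II, so that myosin heavy chains pull on actin filaments. Calponin and transgelin bind those filaments, and many genes of this apparatus are controlled by serum response factor and its partner myocardin through CArG boxes. Pericytes sit on capillaries, are recruited by platelet-derived growth factor through the receptor Pdgfrb, and are commonly recognised by Rgs5, the Kcnj8 and Abcc9 potassium channel and the proteoglycan Cspg4. No marker here belongs to mural cells alone. Acta2 and Tagln are also made by embryonic striated muscle and myofibroblasts, and Cspg4 by oligodendrocyte precursors and cartilage.

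All 10 genes were at 1 TPM or more in both libraries, as were 65.4% of protein coding genes. Their levels spread over a 149-fold range between the highest mean, Acta2, and the lowest, Myh11. The median over the 10 genes was 12.7 TPM in replicate 1 and 13.3 TPM in replicate 2, and the median of their means, 12.96 TPM, was below the median of 18.1 TPM over detected coding genes. Their sum was 418 TPM in replicate 1 and 372 TPM in replicate 2, of which Acta2 alone made 74.8% and 73.1%. In whole tissue, a gene's level cannot tell fewer cells of a type from less RNA per cell.

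**Figure D1:**
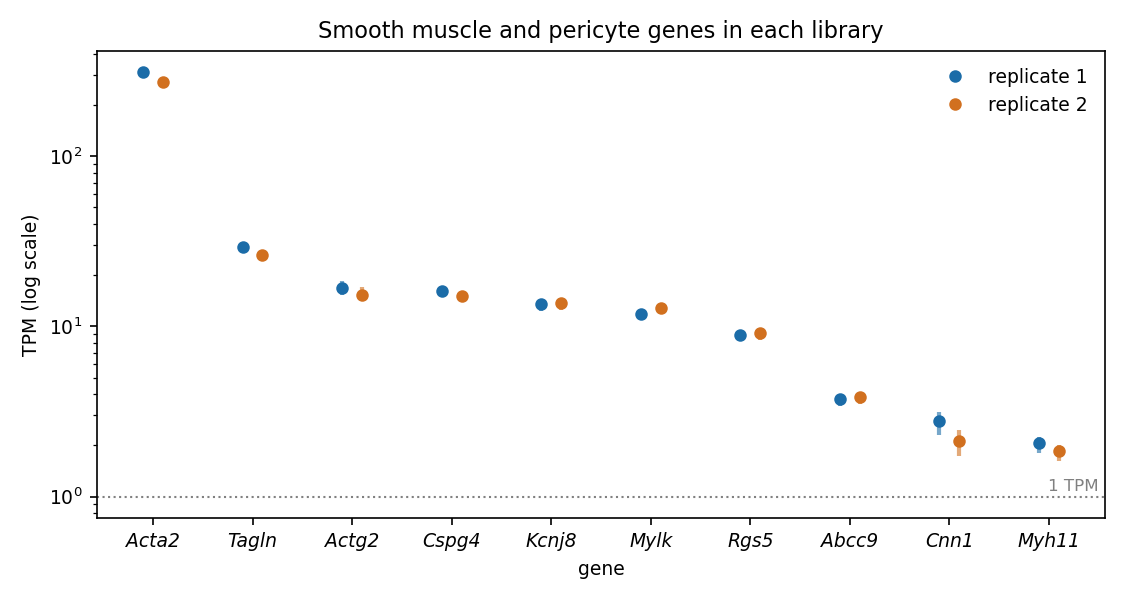
TPM (log scale) of each of the 10 genes in replicate 1 and replicate 2, ordered by mean, with thin lines for the authors' deposited TPM bounds and a dotted line at 1 TPM. Acta2 stands alone at the top, Tagln to Rgs5 lie between 8.92 and 29.45 TPM, and Abcc9, Cnn1 and Myh11 lie under 4 TPM.

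The order of mean levels was Acta2, Tagln, Actg2, Cspg4, Kcnj8, Mylk, Rgs5, Abcc9, Cnn1 and Myh11. The largest step was the first, with Acta2 10.5-fold above Tagln. Actg2 and Cspg4 were the only neighbours whose libraries overlapped, with 15.37 to 16.8 TPM for Actg2 and 15.04 to 16.23 TPM for Cspg4. Actg2 was nevertheless the higher in each library, with deposited bounds that overlapped those of Cspg4. Cnn1 and Myh11 were separated narrowly, since the lower Cnn1 library, at 2.11 TPM, was just above the higher Myh11 library, at 2.07 TPM. Of the 10 genes, 7 were at 5 TPM or more in both libraries. Outside Acta2, Cnn1 and Myh11, the counts per library ran from 475 for Actg2 in replicate 2 to 3179 for Cspg4 in replicate 1.

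Acta2 encodes smooth muscle alpha-actin, the thin-filament actin most used to mark vascular smooth muscle. It lies at chr19:34241090-34255590 on the minus strand of GRCm38. Its level was 312 TPM in replicate 1 and 272 TPM in replicate 2, a mean of 292 ± 28.4 TPM (SD, n = 2), from 12940 and 11757 counts. It exceeded 96.9% of detected coding genes whereas the next of the 10, Tagln, exceeded 62.2%. Actg2 encodes smooth muscle gamma-actin, the actin of gut and other visceral muscle, at chr6:83512905-83536265 on the minus strand. Its level was 16.8 TPM in replicate 1 and 15.4 TPM in replicate 2, so that Acta2 was 18.1 ± 0.628 times as high (SD, n = 2).

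The mouse has 6 conventional actin genes with closely alike coding sequences, and their starts are printed here because reads must tell them apart. The lines give the first 48 coding bases from GENCODE M21 (GRCm38), with capitals where a base is not matched by Acta2 in an alignment of the whole coding sequences. The stretches lie at chr19:34252506-34252553 for Acta2, chr6:83527394-83527441 for Actg2, chr8:123893650-123893697 for Acta1, chr2:114051984-114052031 for Actc1, chr5:142905639-142905686 for Actb and chr11:120348044-120348091 for Actg1, all on the minus strand.
Acta2: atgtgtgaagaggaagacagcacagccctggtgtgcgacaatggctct
Actg2: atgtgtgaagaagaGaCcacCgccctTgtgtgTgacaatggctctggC
Acta1: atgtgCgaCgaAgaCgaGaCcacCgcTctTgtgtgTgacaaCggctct
Actc1: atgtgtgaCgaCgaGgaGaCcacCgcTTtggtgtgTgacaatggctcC
Actb: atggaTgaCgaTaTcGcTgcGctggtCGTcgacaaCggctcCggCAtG
Actg1: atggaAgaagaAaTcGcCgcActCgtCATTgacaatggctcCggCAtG

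The muscle actins carry 6 to 11 capitals in this stretch, and the cytoplasmic actins Actb and Actg1 carry 15 each. Over the whole coding sequence Acta2 shared 84.2% of bases with Actg2, 85.4% with the skeletal actin Acta1, 82.6% with the cardiac actin Actc1, 82.8% with Actb and 81.5% with Actg1. The longest unbroken run shared with Acta2 was 56 bases, in Actg1. No stretch of 100 bases of the Acta2 or Actg2 transcripts occurred in any other gene of GENCODE M21, on either strand. The length of the reads is not given in the sources used here, so shorter reads could still match several actins.

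Smooth muscle actin was a small share of the actin in this tissue. The cytoplasmic actin Actb was at 4491 TPM in replicate 1 and 4093 TPM in replicate 2, which is 14.7 ± 0.470 times Acta2 (SD, n = 2). The striated muscle actins were also above Acta2, Acta1 by 3.13 ± 0.258 times and Actc1 by 3.53 ± 0.356 times. Acta2 made 3.51 ± 0.0763% of the summed TPM of the 6 actins and Actg2 made 0.194 ± 0.00250%.

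Myh11, smooth muscle myosin heavy chain, is the most specific contractile marker of mature smooth muscle and lies at chr16:14194535-14291372 on the minus strand. It was the lowest of the 10 genes, at 2.07 TPM in replicate 1 and 1.85 TPM in replicate 2 (mean 1.96 ± 0.156 TPM, SD, n = 2), from 333 and 311 counts. Only 5.52% of detected coding genes were below it. The nonmuscle myosins that most cells use were far higher: Myh10 was 37.0 ± 0.492 times and Myh9 16.8 ± 0.911 times the level of Myh11. Of the TPM of Myh9, Myh10, Myh11 and Myh14, Myh11 made 1.58 ± 0.0700%.

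Tagln encodes transgelin (SM22-alpha), an actin-binding protein that appears early in smooth muscle differentiation, and lies at chr9:45929619-45936058 on the minus strand. It was at 29.5 TPM in replicate 1 and 26.4 TPM in replicate 2, the second highest level of the 10 genes. Its paralog Tagln2, which many cell types express, was 7.75 ± 1.02 times as high (SD, n = 2), and the neuronal Tagln3 was at 8.29 TPM in replicate 1 and 6.99 TPM in replicate 2. Tagln was the gene whose reads could least be assigned with certainty. Of the 1496 windows of 100 bases along its transcript, 33.2% also occurred in another gene of GENCODE M21, mostly in the antisense gene Gm48529. That gene is not listed in the deposited tables, and the strand setting is not given in the sources used here, so sense and antisense reads cannot be told apart.

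Cnn1 encodes calponin 1, which binds actin and slows the myosin motor, and lies at chr9:22099216-22109630 on the plus strand. It was at 2.77 TPM in replicate 1 and 2.11 TPM in replicate 2 (mean 2.44 ± 0.467 TPM, SD, n = 2), from 155 and 123 counts, the lowest counts of the 10 genes. Its SD was 19.1% of its mean, the largest share among the 10. The other calponins, which are not restricted to muscle, were much more abundant, Cnn2 at 95.1 ± 19.0 times and Cnn3 at 285 ± 48.4 times Cnn1. Cnn1 therefore made 0.209 ± 0.0393% of the summed TPM of the calponins and transgelins.

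Mylk encodes the calcium-dependent myosin light chain kinase of smooth muscle and nonmuscle cells, at chr16:34745210-35002420 on the plus strand. Its level was 11.8 TPM in replicate 1 and 12.8 TPM in replicate 2 (mean 12.3 ± 0.700 TPM, SD, n = 2). Mylk had the highest level of its family, unlike Acta2, Actg2, Myh11 and Cnn1 in theirs. Since Mylk also serves nonmuscle cells, its lead is not one of a smooth muscle gene over nonmuscle genes. It therefore cannot be set against the order within the actins, myosins and calponins. Mylk made 61.6 ± 5.44% of the TPM of the 4 Mylk genes and was 3.69 ± 0.489 times the cardiac kinase Mylk3. Mylk4 was at 4.36 TPM in replicate 1 and 3.01 TPM in replicate 2, and the skeletal kinase Mylk2 was under 1 TPM in both libraries.

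**Figure D2:**
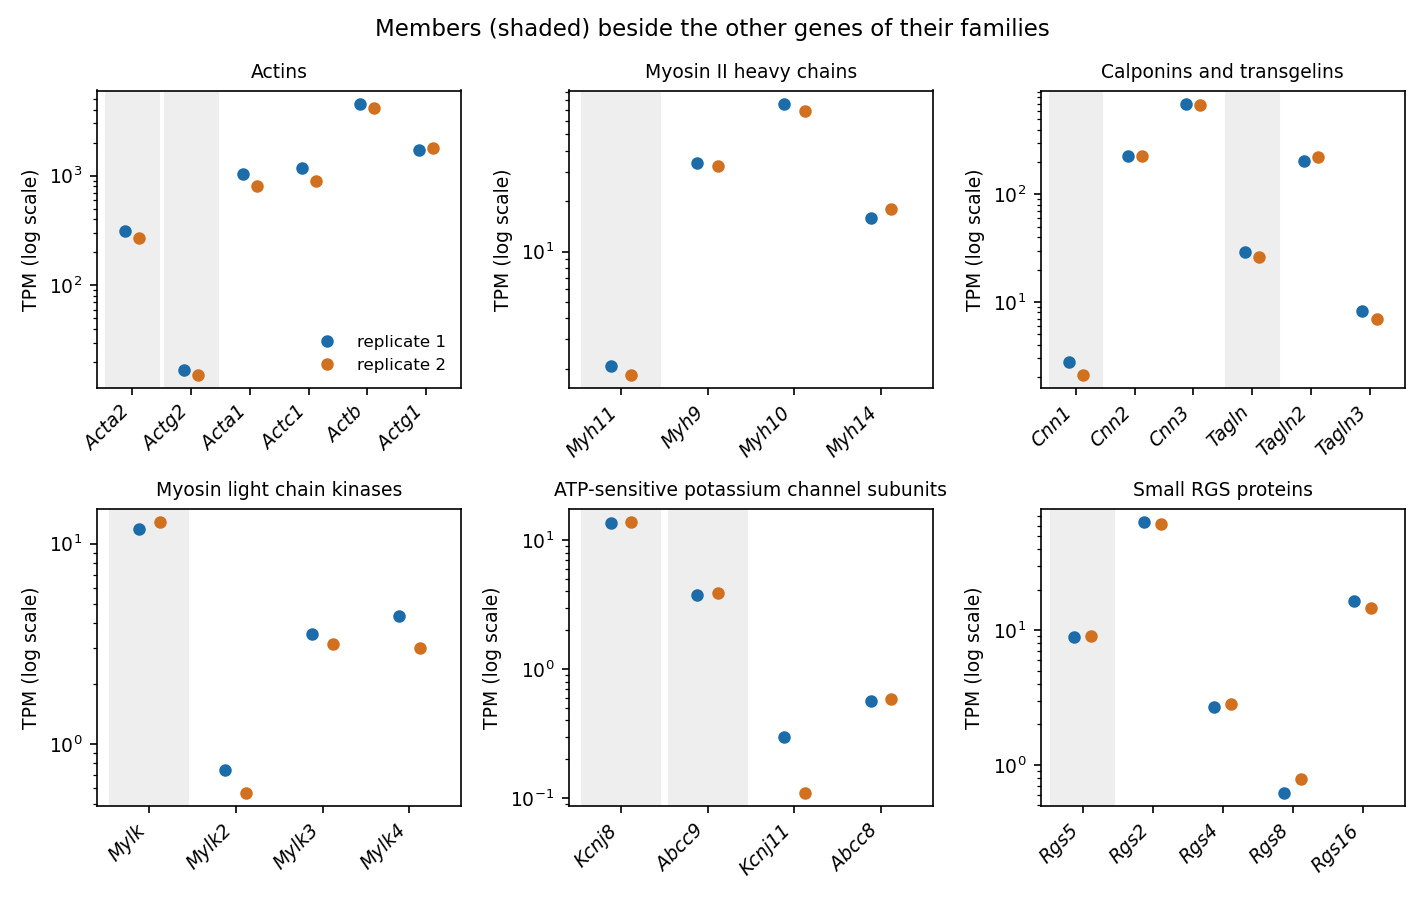
TPM (log scale) of each gene of 6 families in replicate 1 and replicate 2, with the smooth muscle and pericyte genes shaded. Acta2 and Actg2 are the lowest actins, Myh11 the lowest myosin and Cnn1 the lowest calponin, whereas Mylk, Kcnj8 and Abcc9 lead their families and Rgs5 lies in the middle of its own.

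Rgs5 encodes a regulator of G-protein signalling that shortens the response of vessel-wall cells to hormones acting through Gq and Gi proteins, and it is a widely used pericyte marker. It lies at chr1:169655501-169695813 on the plus strand. Its level was 8.92 TPM in replicate 1 and 9.09 TPM in replicate 2 (mean 9.005 ± 0.120 TPM, SD, n = 2). The next gene of the family on that chromosome, Rgs4, lies 45663 bases away and was lower, so that Rgs5 was 3.28 ± 0.0742 times Rgs4. Rgs2 and Rgs16 were higher than Rgs5, at 63.4 and 16.6 TPM in replicate 1 and at 61.5 and 14.6 TPM in replicate 2. Rgs8 was under 1 TPM in both.

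Kcnj8 and Abcc9 encode the pore Kir6.1 and the regulatory sulfonylurea receptor SUR2 of the vascular ATP-sensitive potassium channel, in which 4 subunits of each kind assemble. The genes are neighbours on chromosome 6, Kcnj8 at chr6:142564837-142571614 and Abcc9 at chr6:142587862-142702315, both on the minus strand with 16247 bases between them. Kcnj8 was at 13.5 TPM in replicate 1 and 13.7 TPM in replicate 2, and Abcc9 at 3.75 TPM in replicate 1 and 3.86 TPM in replicate 2. The ratio of Kcnj8 to Abcc9 was 3.61 in replicate 1 and 3.56 in replicate 2 (mean 3.58 ± 0.0342, SD, n = 2). The RNA of the partners was thus not at the equal ratio of their proteins in the channel. The other pair of channel subunits, known from pancreatic beta cells and neurons, was under 1 TPM in both libraries: Abcc8 was at 0.57 TPM in replicate 1 and 0.59 TPM in replicate 2, and Kcnj11 was at 0.30 TPM from 8 counts in replicate 1 and 0.11 TPM from 3 counts in replicate 2.

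Cspg4 encodes the proteoglycan NG2 on the pericyte surface and lies at chr9:56865033-56899870 on the plus strand. It was at 16.2 TPM in replicate 1 and 15.04 TPM in replicate 2 (mean 15.6 ± 0.841 TPM, SD, n = 2), the highest of the pericyte genes here. The pericyte growth factor receptor Pdgfrb, which fibroblasts of the face also carry, was 3.05 ± 0.277 times Cspg4 and 5.28 ± 0.125 times Rgs5. Over the 16 gene pairs, the first gene was higher than its paralog or partner in both libraries in 6.

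Only 4 of the 10 genes had more than 1 transcript in the deposited tables, namely Actg2, Mylk, Rgs5 and Abcc9. The authors gave each transcript a percent of its gene's TPM, an estimate that depends on the few reads that tell transcripts apart. For Rgs5, a single transcript (Rgs5-201) took 98.95% in replicate 1 and 99.04% in replicate 2. For Actg2, by contrast, Actg2-201 took 70.8% in replicate 1 and 48.3% in replicate 2, and Actg2-202 took 26.2% and 51.7%. The deposited TPM bounds of both Actg2 transcripts overlapped between libraries, 8.26 to 16.0 TPM in replicate 1 and 4.70 to 13.5 TPM in replicate 2 for Actg2-201. By the authors' posterior mean, Actg2-201 led in both libraries, with 72.4% in replicate 1 and 56.9% in replicate 2, so the change of leader appears under the TPM percent only.

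Mylk had a single coding transcript, Mylk-201 with 32 exons, at 9.14 TPM in replicate 1 and 8.96 TPM in replicate 2. The rest of the gene's TPM went to Mylk-202, a transcript of 6 exons annotated as a retained intron, at 2.66 TPM in replicate 1 and 3.83 TPM in replicate 2. Its bounds did not overlap, 2.24 to 3.01 TPM in replicate 1 and 3.30 to 4.21 TPM in replicate 2, so the higher Mylk level of replicate 2 came with more of the noncoding transcript. The locus is known to make a long nonmuscle kinase, a short smooth muscle kinase and telokin, which holds the last domain only. The tables give the short kinase and telokin no model of their own, so these forms were not analysed here.

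Abcc9 makes forms that differ in their last coding exon: SUR2A, typical of heart and skeletal muscle, and SUR2B, typical of vascular muscle, whose end is known to resemble that of SUR1 (Abcc8). The last 90 coding bases of both forms, stop codon left out, are printed because the assignment rests on them, with capitals at the 48 positions where they differ. Sequences are from GENCODE M21 (GRCm38), at chr6:142590369-142590458 for Abcc9-203 and chr6:142594008-142594097 for Abcc9-201, on the minus strand.
Abcc9-203: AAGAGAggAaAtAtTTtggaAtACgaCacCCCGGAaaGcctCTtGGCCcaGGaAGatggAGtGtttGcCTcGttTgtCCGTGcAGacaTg
Abcc9-201: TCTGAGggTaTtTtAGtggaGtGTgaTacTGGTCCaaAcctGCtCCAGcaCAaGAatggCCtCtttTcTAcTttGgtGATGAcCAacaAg

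The end of Abcc9-203 matched the Abcc8 end at 59 of 90 positions (65.6%), and the end of Abcc9-201 matched it at 43 (47.8%). Abcc9-203 is thus the SUR2B-type transcript, and Abcc9-201, Abcc9-202 and Abcc9-204 share the other end. Abcc9-203 took 87.1% of the gene's TPM in replicate 1 and 82.4% in replicate 2 (mean 84.7 ± 3.30%, SD, n = 2). The transcripts with the other end together took 12.9% and 17.6%. By the authors' posterior mean, the share of Abcc9-203 was 75.8% in replicate 1 and 74.1% in replicate 2, so the SUR2B-type end led under both estimates. Among the transcripts with the other end the split was unstable, with Abcc9-202 at 0% in replicate 1 and 15.6% in replicate 2.

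**Figure D3:**
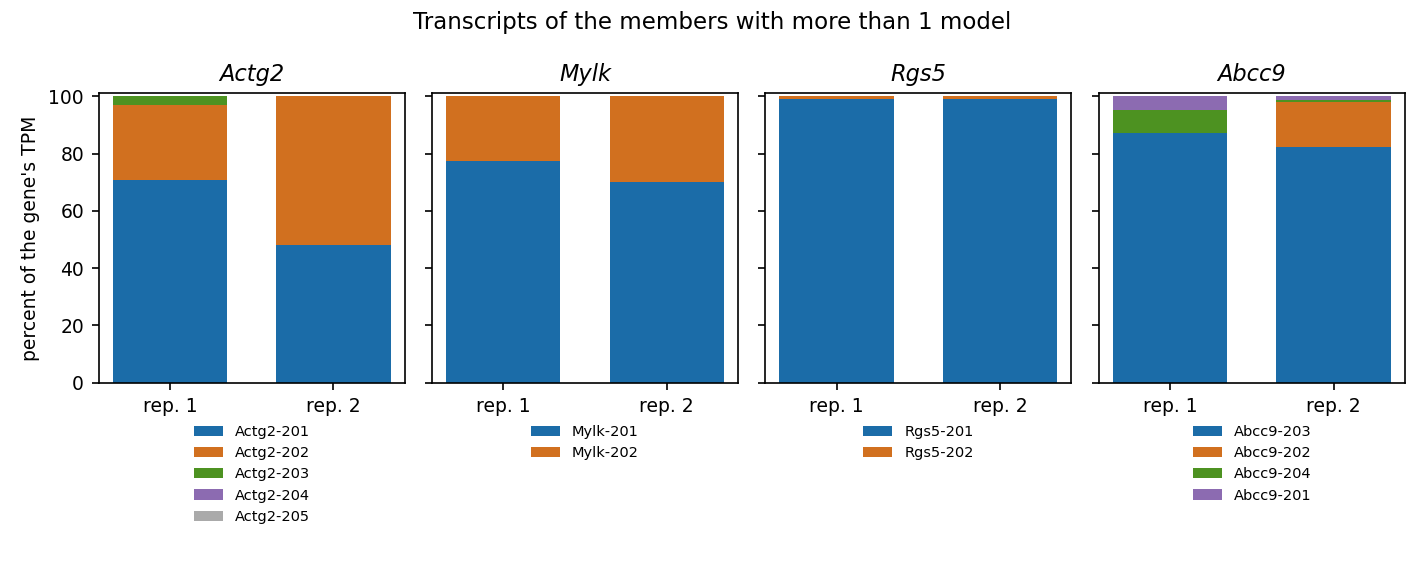
Percent of the gene's TPM taken by each transcript of Actg2, Mylk, Rgs5 and Abcc9 in replicate 1 and replicate 2, stacked to 100. A single transcript leads in Mylk, Rgs5 and Abcc9 in both libraries, whereas the leading Actg2 transcript differs between them by this percent.

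Ratios between libraries were formed from rounded expected counts scaled by TMM, a method that sets the bulk of genes to no difference, for the 18318 genes that had at least 10 counts in each library. All 10 genes passed that minimum. None of them was over 1.5-fold higher in replicate 1, against 4.31% of genes, and none over 1.5-fold lower, against 4.78%. Their log2 ratios of replicate 1 over replicate 2 ran from -0.05 for Abcc9 to 0.39 for Cnn1. Cnn1 was 1.31-fold higher in replicate 1, with deposited bounds that overlapped. Acta2 was 1.15-fold higher in replicate 1 (log2 0.20). The median size of the ratio, without its sign, was 0.11 log2 over the 10 genes and 0.12 log2 over all genes.

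Over all 18318 genes, 49.8% of ratios were above 0 and 50.2% below. Among the 6 contractile genes, 5 were higher in replicate 1, among them Actg2 at 0.12 and Tagln and Myh11 at 0.16 each. Their median log2 ratio was 0.16, and Mylk was the exception at -0.04. Among the 4 pericyte genes, 3 were slightly lower in replicate 1, with Rgs5 at -0.03 and Kcnj8 at -0.02. Their median was -0.03, and Cspg4 was the exception at 0.11. For Actg2, Myh11, Mylk, Rgs5, Kcnj8 and Abcc9, 6 of the 10, the ratio was within the 95% counting error of its reads. The remaining differences were small and lay between 2 pools of 1 group, and no test of them is possible. The deposited TPM bounds did not overlap for Acta2 and Cspg4, both higher in replicate 1, as for 9.01% of genes. Acta2 had bounds of 299.9 to 310 TPM in replicate 1 and 261 to 271 TPM in replicate 2, which surround the authors' posterior mean and in both libraries end just below its TPM. No gene of the 10 had bounds apart and lower in replicate 1, against 7.64% of genes. These bounds include the unequal spike-in shares. Rescaled over Ensembl genes, an alternative chosen after the data were seen, the bounds of Acta2 stayed apart (5.42% of genes higher in replicate 1), whereas those of Cspg4 overlapped. The rescaled bounds of Mylk came apart, lower in replicate 1 at 11.7 to 12.9 TPM against 13.3 to 14.6 TPM in replicate 2, as for 13.5% of genes.

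By their medians, skeletal muscle and cartilage genes differed more between the pools than the 10 genes did, whereas endothelial genes did not. The log2 ratios of Acta1 (0.37), Mylpf (0.38) and Sox9 (-0.38) were nevertheless slightly smaller in size than that of Cnn1 (0.39). All 10 skeletal muscle genes, among them Acta1, Actc1 and Myl1, were higher in replicate 1, with a median log2 ratio of 0.42 and a summed level of 4455 TPM in replicate 1 and 3326 TPM in replicate 2. All 5 cartilage genes, among them Col2a1 and Matn1, were lower in replicate 1, with a median of -0.63 and a summed level of 297 TPM in replicate 1 and 501 TPM in replicate 2. No gene of either list was under 1 TPM. Endothelial genes, led by Egfl7, Esam and Pecam1, had a median log2 ratio of 0.07, with 7 of 10 higher in replicate 1 and a summed level of 325 TPM in replicate 1 and 303 TPM in replicate 2. The part of skeletal muscle in the higher Acta2, Tagln and Cnn1 of replicate 1, and of endothelium or cartilage in any of the 10, was not tested.

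**Figure D4:**
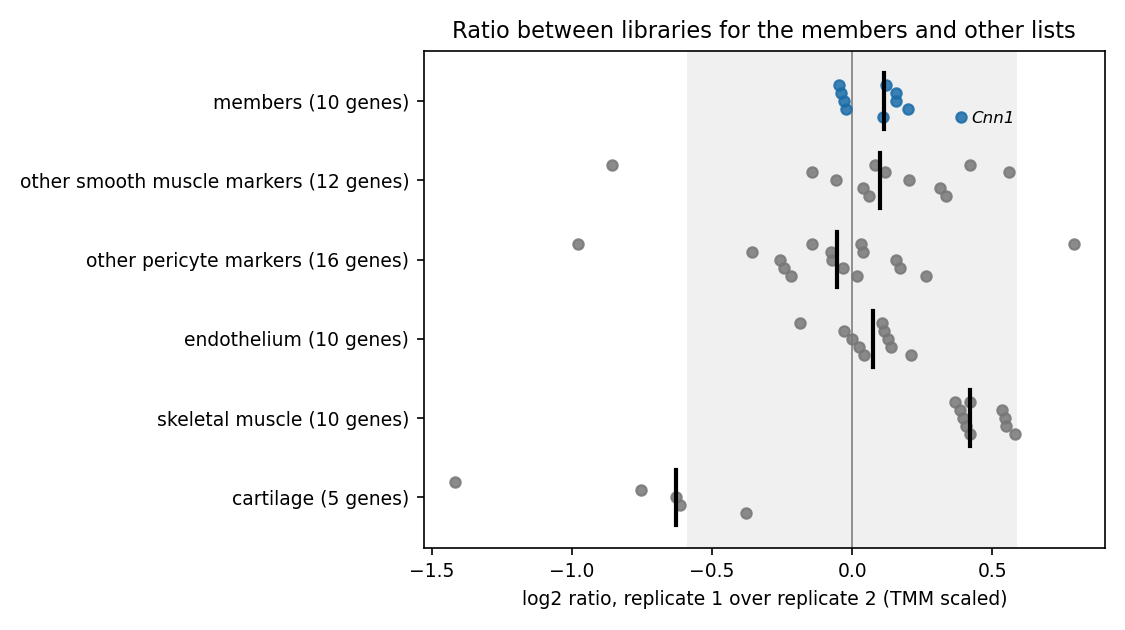
Log2 ratio of replicate 1 over replicate 2 (TMM scaled) for each gene of the 10 and of 5 other marker lists, with a black bar at each list's median and grey shading inside 1.5-fold. The 10 genes all lie inside the shading, skeletal muscle genes lie to the right of 0 and cartilage genes to the left.

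Further markers of the same cells were mostly present, with wide differences in level among them. Of 16 other pericyte markers, 15 were at 1 TPM or more in both libraries, against 65.4% of protein coding genes. Their medians were 13.2 TPM in replicate 1 and 13.3 TPM in replicate 2. Ndufa4l2, a mitochondrial protein gene typical of pericytes, led them at 201 TPM in replicate 1 and 222 TPM in replicate 2. Next came Ebf1, Pdgfrb, the endothelin receptor Ednra and Mcam, with means from 50.6 TPM for Ebf1 to 31.6 TPM for Mcam. These leaders were above Cspg4, the highest pericyte gene of the 10, at a mean of 15.6 TPM. Which cells made their RNA was not tested. The marker short of 1 TPM in a library was Higd1b, at 1.69 TPM in replicate 1 and 0.91 TPM in replicate 2. It was chosen for naming after its values were seen. Of 12 other smooth muscle markers, 11 were detected, with medians of 19.9 TPM in replicate 1 and 17.0 TPM in replicate 2. Their most abundant genes were Des, Npnt, Casq2, Pcp4l1 and Ppp1r14a, of which Des and Casq2 are also striated muscle genes, and Lmod1, the leiomodin of smooth muscle thin filaments, was under 1 TPM in both.

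The partners of the contractile genes were mostly abundant. Of 15 such genes, 14 were detected, against 65.4% of protein coding genes. None passed 1.5-fold in either direction, against 4.31% of genes higher and 4.78% lower in replicate 1. The medians were 143.7 TPM in replicate 1 and 129.7 TPM in replicate 2. Myl6, the essential myosin light chain that smooth muscle shares with nonmuscle cells, was at 875 TPM in replicate 1 and 802 TPM in replicate 2, followed by the tropomyosins Tpm1, Tpm4 and Tpm2 and caldesmon, Cald1. Upstream signals were present too, with all 11 genes of mural cell recruitment detected, led by Eng, Pdgfrb, Tgfbr2, Jag1 and S1pr1.

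Serum response factor and its partners were all detected, 7 of 7, against 65.4% of protein coding genes. None passed 1.5-fold, as for most genes, of which 4.31% passed higher and 4.78% lower in replicate 1. Klf4, which represses smooth muscle genes, was the highest at 36.3 TPM in replicate 1 and 33.8 TPM in replicate 2, followed by the coactivator Mrtfa, Elk4, Mrtfb and Elk1. Srf itself was at 4.63 TPM in replicate 1 and 4.22 TPM in replicate 2, and myocardin, Myocd, at 6.77 TPM in replicate 1 and 6.05 TPM in replicate 2. Both were named after their values were seen.

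Promoters were read for matches to the CArG box, through which this pathway acts. The MCAT element CATTCC, the GC box GGGCGG and TATAA were also searched. RefSeq sequence (GRCm38.p6) was used for 7 of the 10 genes: Acta2, Cnn1, Mylk, Rgs5, Kcnj8, Abcc9 and Cspg4. The window was the 250 bases before the RefSeq start of each gene, read on both strands. The GENCODE M21 start is the same for Rgs5 and Kcnj8 only. For the other genes the window runs past a GENCODE start into the gene. A match to the CArG box, the serum response factor element, needed CC at its start and GG at its end. Up to 1 substitution, by G or C, was allowed only among the A and T bases between them. Sites with a change in CC or GG were not searched for. The Acta2 promoter is shown because it was the only promoter of the 7 with CArG matches under this rule. Capitals mark 2 CArG matches, each with 1 substitution, at bases -84 to -75 and -34 to -25 from the RefSeq start. They also mark a match on the other strand to the MCAT element CATTCC at bases -146 to -141. The Acta2 window lies at chr19:34255374-34255623 on the minus strand. The GENCODE M21 start of the gene, base 34255590, falls inside it, and these matches lie downstream of that start.
Acta2 promoter: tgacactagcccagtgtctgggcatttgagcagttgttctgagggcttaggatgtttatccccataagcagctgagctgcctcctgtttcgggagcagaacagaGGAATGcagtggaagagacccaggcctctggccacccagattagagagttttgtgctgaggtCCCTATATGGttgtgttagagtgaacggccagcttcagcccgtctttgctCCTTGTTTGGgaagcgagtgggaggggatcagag

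A CArG match with up to 1 substitution between CC and GG occurred in 8.59% of all 32851 RefSeq promoter windows of this length. An exact match occurred in 1.47%. CATTCC occurred in 12.6%, and besides Acta2 it was found before Mylk and Abcc9. The GC box GGGCGG occurred in 32.7% and was found before Abcc9 and, in 2 places, Cspg4, while TATAA occurred in 22.8% and in none of the 7. The promoters of the neighbouring channel genes Kcnj8 and Abcc9 are shown beside Rgs5 so that the pericyte promoters can be compared. Capitals mark the MCAT match of Abcc9, the only marked element among them. They lie at chr1:169655251-169655500 on the plus strand for Rgs5, and at chr6:142571615-142571864 for Kcnj8 and chr6:142702275-142702524 for Abcc9 on the minus strand.
Rgs5 promoter: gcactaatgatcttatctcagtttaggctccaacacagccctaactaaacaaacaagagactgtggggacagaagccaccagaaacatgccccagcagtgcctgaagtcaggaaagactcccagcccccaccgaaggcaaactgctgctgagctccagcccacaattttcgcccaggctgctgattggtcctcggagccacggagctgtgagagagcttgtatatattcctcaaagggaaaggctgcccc
Kcnj8 promoter: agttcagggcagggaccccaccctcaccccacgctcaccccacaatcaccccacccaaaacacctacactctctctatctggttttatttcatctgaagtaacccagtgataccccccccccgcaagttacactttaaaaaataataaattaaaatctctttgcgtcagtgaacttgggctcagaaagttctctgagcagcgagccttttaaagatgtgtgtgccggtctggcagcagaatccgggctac
Abcc9 promoter: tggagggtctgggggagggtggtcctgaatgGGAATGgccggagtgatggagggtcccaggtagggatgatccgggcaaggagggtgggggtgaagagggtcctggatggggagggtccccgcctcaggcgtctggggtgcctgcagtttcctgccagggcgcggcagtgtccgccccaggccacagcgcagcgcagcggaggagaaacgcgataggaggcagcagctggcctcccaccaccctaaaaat

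The promoters of Rgs5, Kcnj8 and Cnn1 held none of the motifs as searched, with CC and GG required at the ends of a CArG box. Base composition also varied, from 49.2% G and C for Kcnj8 to 66.8% for Abcc9, around a median of 52.4% over all promoter windows. A match is a description of letters, not a binding site. The absence of a match says only that these letters are not in this window.

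**Figure D5:**
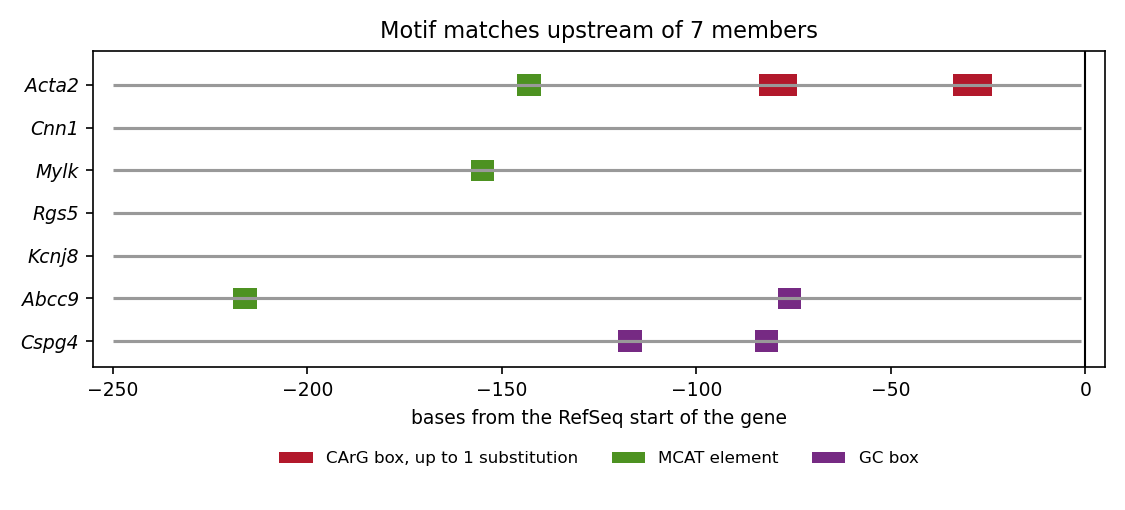
Motif matches in the 250 bases before the RefSeq start of 7 genes, with distance from the start on the x axis and 1 line per gene. CArG matches, with CC and GG unchanged at their ends, appear for Acta2 only. MCAT matches appear for Acta2, Mylk and Abcc9, and GC boxes for Abcc9 and Cspg4.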

How the data were processed

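Total RNA-seq of 2 libraries of 1 group was used. Reads were aligned to mm10 with annotation M4, per the submitters' processing notes. Which aligner and quantification program made the values, in which version and with which strand setting, is not given in the sources used here. Per the file headers, the authors deposited an expected count and TPM for each gene and transcript, with a posterior mean TPM as a further estimate. The authors' TPM bounds, recorded as a score because they sum to no fixed total, have no level printed in the tables. Percent of the gene's TPM was deposited for each transcript by the authors.

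The 10 genes and all gene lists were chosen with earlier results of these data known. IDs were named with GENCODE M21 (42462 of 43346 matched). The 97 spike-in and 26248 numbered sequences were left out, spike-ins except for scaling. Ratios used rounded expected counts, TMM factors of 0.989 and 1.01 and a prior count of 2 (edgeR 4.0.16, R 4.3.3), with DESeq2 1.42.0 size factors as an alternative. Other steps used Python 3.11.15, numpy 2.4.6, pandas 2.3.3, scipy 1.17.1, matplotlib 3.10.9 and Biopython 1.88. The ratio step was tested on simulated data. Motifs were searched in RefSeq promoters.

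Named were the 10 genes, every gene of their 6 families, the genes of the 16 fixed pairs and, of each other list, the 5 highest by mean TPM and any under 1 TPM in both libraries. Where room was short, some of these were left out. No gene was named for a like pattern, since 2 libraries of 1 group give none. Alternatives were other TPM estimates, thresholds, scalings and leaving out each library.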

Additional observations from a re-analysis of the deposited data

How the results depend on the processing

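The order of the 10 genes by mean level was the same under posterior mean TPM, TPM rescaled over Ensembl genes, coding transcripts only, and either library alone. Over coding transcripts only, however, Mylk (9.14 TPM in replicate 1, 8.96 TPM in replicate 2) and Rgs5 (8.92 and 9.09 TPM) overlapped and changed places in replicate 2. The median level, 12.96 TPM, was 14.1 TPM when rescaled over Ensembl genes without spike-ins, which raises every gene by construction. It was 11.3 TPM over coding transcripts only, where Mylk without its retained-intron transcript had a mean of 9.05 TPM. With either library alone the median was 12.7 or 13.3 TPM, 10 of 10 genes were detected, the first gene of a pair was higher in 6 of 16 pairs, and the transcript with the highest mean took most of the gene in 3 (replicate 2 alone) or 4 (replicate 1 alone) of 4 genes, Actg2-201 being the exception. Detection stayed at 10 genes at 0.5 TPM and was 7 at 5 TPM. No gene passed 1.5-fold with DESeq2 size factors, library size alone, a prior count of 0.5, no filter on counts, or a 2-fold limit. Scaling by spike-ins made all 10 pass, all higher in replicate 1, but moved the median of all genes by 0.65 log2. Relative to that shift 0 passed and 6 were above it, as with TMM. The cause of that shift was not tested. With bounds rescaled over Ensembl genes, added after the data were seen, 1 gene rather than 2 had bounds apart and higher in replicate 1 (Acta2, not Cspg4), and 1 rather than 0 lower (Mylk). No paired analysis was possible because the study has only 1 group. Low counts limit Cnn1 most, and transcript shares of Actg2 rest on few reads.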

Other observations

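Among partners of the contractile genes, transcript shares were read for Tpm1, Cald1 and Smtn, whose smooth muscle and nonmuscle forms come from the same gene by splicing or separate starts. Tpm1 was divided among several coding transcripts. Tpm1-205 took 33.4% of the gene's TPM in replicate 1 and 28.1% in replicate 2, and Tpm1-213 took 29.8% in replicate 1 and 32.1% in replicate 2. The leading Cald1 transcript, Cald1-211, has a model of only 956 bases and took 50.3% in replicate 1 and 49.6% in replicate 2. Cald1-215, annotated as a retained intron, took 25.8% and 26.4%. Smtn-202, a coding transcript of 3335 bases, took 51.8% in replicate 1 and 63.5% in replicate 2, ahead of Smtn-201, a coding transcript of 1747 bases, at 32.1% in replicate 1 and 25.7% in replicate 2.

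Besides most skeletal muscle and cartilage genes above, some markers outside the 10 differed more between the pools than any of the 10. They went in both directions, and those here were named after their values were seen. The pericyte marker Vtn was at 1.67 TPM in replicate 1 and 3.51 TPM in replicate 2. The smooth muscle marker Sncg, which sensory neurons also express, was at 2.69 TPM in replicate 1 and 4.96 TPM in replicate 2. On the same pericyte and smooth muscle lists, Higd1b, Mustn1 and Casq2 were higher in replicate 1, with log2 ratios of 0.79, 0.56 and 0.42. Higd1b had only 23 counts in replicate 1 and 13 in replicate 2. Its ratio was within the 95% counting error of its reads, and its deposited bounds overlapped. Olig1 and Olig2, genes of the oligodendrocyte lineage in which Cspg4 is also expressed, were at 3.01 and 1.13 TPM in replicate 1 and at 5.06 and 2.6 TPM in replicate 2, whereas Cspg4 was slightly higher in replicate 1.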
